A study of Brachypodium distachyon with 45 samples.

Results

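The leaves described here are those of the watered ABR8 plants over the last 4 days of an 8-day experiment, and the members are the loci with an FPKM of at least 1 in the ABR8 T2 control or in the ABR8 T1 control. FPKM is the fragment count of a locus scaled by its transcript length and by the size of the library. The rule gave 17446 of the 33852 loci in the table, or 51.5%, of which 16247 reached an FPKM of 1 in both groups, 449 in the T2 control alone and 750 in the T1 control alone. The locus just inside the rule had a highest FPKM of 1.00 and the one just outside it 0.9997. The ABR8 T2 control was leaf tissue of watered plants at 40 days after germination, and the ABR8 T1 control was leaf tissue of watered plants at 36 days. ABR8 is an inbred line of the grass Brachypodium distachyon that the study had classed as drought tolerant, and it was set beside ABR4, classed as intermediate, and KOZ1, classed as susceptible. Plants of all 3 lines were grown in compost in a growth chamber, and the labels name no transgene or mutation. Each of the 15 groups held 3 libraries, each from a different plant, and the authors' table pools them into 1 value per group with 95% limits, so the spread between plants is seen only through those limits.

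A grass leaf goes on changing after it has expanded. Its cell walls are cross-linked by peroxidases and laccases, enzymes that oxidise phenolics and lignin precursors, and are trimmed by glycoside hydrolases and pectin enzymes. Jasmonate is a stress and defence hormone whose response is held back by JAZ proteins, while WRKY and AP2/ERF transcription factors carry many stress and wounding responses. Abscisic acid is the main hormone of water shortage, and the genes of its PP2C phosphatases are switched on by it in Arabidopsis and rice. The T2 and T1 controls differ in age, in harvest day and in handling on that day, and these cannot be told apart.

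The watering recorded with the samples goes against their titles for 15 of the 45 samples, and this has a bearing on both groups. In ABR8 the 12 samples taken after T0 are recorded the other way round, those titled control as unwatered and the rest as watered, and the 3 KOZ1 T0 samples are recorded as unwatered. The titles, which the table's column names follow, were used for every value. Loci that respond to water shortage in the other lines were therefore read in ABR8. In KOZ1, T2 drought was higher than T2 control at 991 loci (3.77% of those tested) and lower at 1201 (4.57%), by the z-test defined further on. Of the 849 higher ones that were members, the median log2 ratio of ABR8 T2 control over T1 control was 0.13, against 0.03 for all members, with 5.42% at least 2-fold higher and 7.66% at least 2-fold lower, against 2.06% and 4.10% for all members. Their median FPKM in ABR8 was 8.85 in the T0 control, 6.78 in the T1 control, 6.51 in T2 drought and 6.75 in the T2 control. Of the 849, 2 were called higher and 8 lower in the ABR8 T2 control against its T1 control, where 0.0946% and 0.178% of all tested loci were called. The 1157 members among the lower ones had a median log2 ratio of -0.05, with 4 called higher and 4 lower, and their median FPKM in ABR8 was 33.8 in the T0 control, 42.05 in the T1 control, 45.4 in T2 drought and 41.4 in the T2 control.

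The study's own test, also with a 2-fold limit, reported many more drought-responsive genes in ABR4 and KOZ1 than the z-test called. The lists here hold only the part of the response that the z-test called. ABR4 gave 10 loci higher with drought at T2 (0.0388%) and 8 lower (0.031%). Of the 8 members among the higher ones 0 were called in the ABR8 controls, while 3 were at least 2-fold lower and 1 at least 2-fold higher. All 8 lower ones were members, and 4 of them were called lower and 2 higher in the ABR8 T2 control against its T1 control. The 4 were Bradi5g04630, Bradi1g38120, Bradi3g02990 and the unnamed locus XLOC_024713, and the 2 were Bradi2g45143 and Bradi2g60970. The median FPKM of the 8 in ABR8 was 21.5 in the T0 control, 20.2 in the T1 control, 28.9 in T2 drought and 23.1 in the T2 control. Of the 10 higher and 8 lower loci of ABR4, 8 were higher and 5 lower with drought in KOZ1 too. The response was not the same throughout, since KOZ1 T2 drought was higher than its control at Bradi5g04630 and Bradi1g38120. The 7 members among the shared higher loci had a median log2 ratio of -0.78 in ABR8 T2 over T1 control. Of them 0 were at least 2-fold higher, 3 at least 2-fold lower and 0 called. The 5 shared lower loci had a median of 0.88, with 2 called higher and 1 lower. The lists thus held ABR8 calls in both directions, and they were not used to choose between the titles and the record.

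Single genes of abscisic acid signalling gave the values behind this. PP2C30 (Bradi1g66920), which codes for a phosphatase that blocks abscisic acid signalling, had an FPKM of 70.5 in KOZ1 T2 drought, against 1.83 in the KOZ1 T2 control. In ABR4 it had 13.8 in T2 drought, against 3.26 in the T2 control. In ABR8 its FPKM was 3.05 in T2 drought, against 3.93 in the T2 control, and it was 3.68 in the T1 control and 3.05 in the T0 control. PP2C50 (Bradi2g18510) reached 40.8 in KOZ1 T2 drought, against 7.36 in the KOZ1 T2 control, and 12.9 in ABR4 T2 drought, against 6.68 in the ABR4 T2 control. In ABR8 it was 9.504 in the T2 control, against 7.39 in the T1 control. PP2C53 (Bradi2g14420) had 1.28 in KOZ1 T2 drought, against 1.59 in the KOZ1 T2 control, so it was no marker of drought there. It had 1.35 in ABR4 T2 drought, against 1.67 in the ABR4 T2 control, and in ABR8 it had 2.25 in the T2 control, against 2.75 in the T1 control. The 3 PP2C genes and 5 SAPK kinase genes with a RefSeq name held 0 called loci in ABR8, and their log2 ratios of T2 over T1 control lay between -0.32 and 0.36. PP2C50 had 9.20 in ABR8 T2 drought, near its level in the T2 control, and the PP2C genes do not tell which of the records is right.

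The libraries of both ABR8 controls carried their own line's transcripts. Of 100 loci with an FPKM of at least 5 in ABR4 and at most 0.1 in ABR8 in the T0 control and T2 drought groups, 0 reached an FPKM of 1 in the ABR8 T2 control and 0 in the ABR8 T1 control, and the highest values were 0.184 and 0.110. The same held for 91 such loci of KOZ1. The ABR8 T1 drought group stood apart, with a median FPKM of 3.71 over the 100 ABR4 loci and 98 of them at 1 or more, and the ABR4 T1 drought group had a median FPKM of 4.22 over 143 such loci of ABR8. Neither T1 drought group enters a comparison. Of the 6 MADS-box genes with a RefSeq name only AGL11 (Bradi3g58220) was a member, with an FPKM of 30.03 in the ABR8 T2 control, against 29.1 in the T1 control. The names of the sequencing runs end in L3 for the 3 libraries of the ABR8 T2 control and in L2 for the 3 of the ABR8 T1 control, so run and time cannot be told apart in ABR8. The ABR8 T0 control shares the ending L2 with the T1 control, T2 drought shares L3 with the T2 control, and the ABR4 T0 and T1 controls all end in L1.

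Few loci were called in watered ABR8 leaves over the last 4 days. The T2 control was higher than the T1 control at 25 loci (0.0946% of the 26433 tested) and lower at 47 (0.178%), and all 72 were members. Each test was a z-test of the ln FPKM values, whose standard errors came from the authors' upper limits. A locus was called where the p, adjusted by the Benjamini-Hochberg method, was 0.05 or less and the groups differed 2-fold or more. The 95% limits of the T2 and T1 controls did not overlap for any of the 72. This largely follows from the calls, whose standard errors came from the same limits, and is no added support. Of the 26433 tested loci, 93 higher and 169 lower had limits that did not overlap at 2-fold or more. The called log2 ratios ran from 1.48 to 3.33 among the 24 higher loci above 0 in both groups, and from -1.44 to -8.37 among the 46 lower ones. The median member had a log2 ratio of 0.03, and 85.1% of members lay within 1.5-fold. Without a test, 360 members were at least 2-fold higher and 715 at least 2-fold lower, so falls outnumbered rises at both levels. Over all tested loci, those below an FPKM of 1 included, the shares at least 2-fold higher and lower were 7.56% and 12.5%.

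The precision of a member depended on its level. For the 9539 members whose higher FPKM was under 10, the standard error had a median of 0.307 times the FPKM in the T2 control and 0.306 times in the T1 control, and for the 7066 between 10 and 100 it was 0.182 and 0.183 times. The first class gave 2 higher and 7 lower calls, the second 20 and 34, and the 841 members at 100 or more gave 3 and 6. At an unadjusted p of at most 0.05 and 2-fold, 174 members were higher and 335 lower, and over all tested loci the shares were 0.662% and 1.31%. The z values were narrower than a normal distribution, with quartiles at -0.36 and 0.44 against -0.67 and 0.67. A test on the difference in FPKM in place of its logarithm called 4 loci higher and 2 lower, all among the 72. These were Bradi2g19010, Bradi2g45143, Bradi2g60970 and Bradi2g61050, and Bradi3g02990 and the unnamed locus XLOC_024713.

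**Figure D1:**
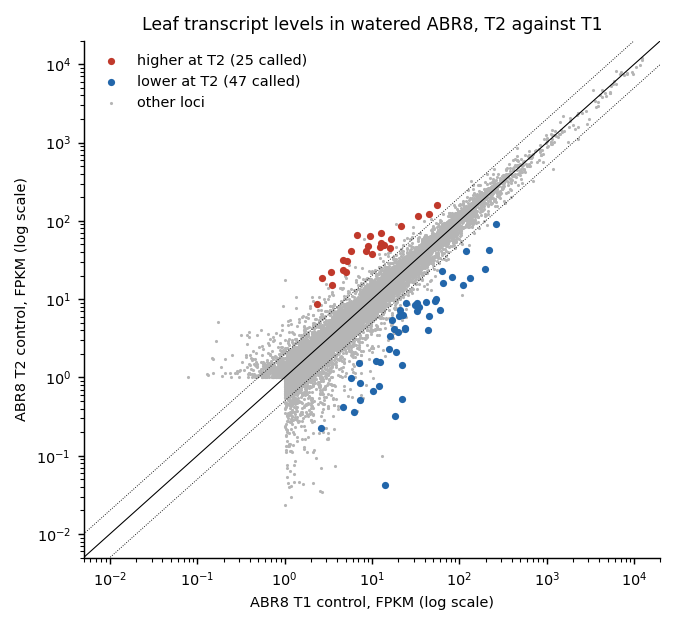
FPKM in the ABR8 T2 control (vertical, log scale) against the ABR8 T1 control (horizontal, log scale) for the members above 0 in both groups, with dotted lines at 2-fold. Most loci hug the diagonal, while the 24 loci called higher (red) and the 46 called lower (blue) that are above 0 in both groups lie outside the 2-fold lines.

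The steepest rises were mostly of genes that the study's tables do not describe. Bradi2g61050 (chromosome 2, 58027333 to 58030005, v3.0 assembly) had an FPKM of 66.9 (95% limits 42.9 and 90.9) in the T2 control, against 6.66 (3.22 and 10.1) in the T1 control. Its log2 ratio was 3.33 ± 0.46 (SE), with an adjusted p of 1.78e-08 by the z-test. Bradi2g60970, 37022 bases before it on the same chromosome, had 64.6 (42.1 and 87.2) in the T2 control, against 9.57 (4.87 and 14.3) in the T1 control, a log2 ratio of 2.76 ± 0.44 (SE). For both genes the limits of the T2 and T1 controls lay apart, as for all called loci. Bradi2g45143 stood at 22.2 in the T2 control, against 3.43 in the T1 control. Bradi2g19010, a DnaJ-type gene of the family that hands unfolded proteins to Hsp70 chaperones, stood at 41.2 (26.9 and 55.6) in the T2 control, against 5.72 (2.75 and 8.68) in the T1 control. Its log2 ratio was 2.85 ± 0.46 (SE).

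These 4 genes and Bradi2g56347 (44.7 in the T2 control, against 15.9 in the T1 control) were all lower in the ABR8 T2 drought group, where they had 6.199 for Bradi2g61050, 5.42 for Bradi2g60970, 2.96 for Bradi2g45143, 4.60 for Bradi2g19010 and 12.5 for Bradi2g56347. In ABR4 at T2, Bradi2g61050 likewise had 8.27 with drought, against 19.5 in the control, and in KOZ1 it had 3.01 with drought, against 14.5 in the control. Bradi2g19010 did not share this in KOZ1, with 18.4 in T2 drought, against 5.56 in the T2 control. At the start, in the ABR8 T0 control, the FPKM was 11.2 for Bradi2g61050 and 13.3 for Bradi2g60970, above their T1 values, 0.866 for Bradi2g45143, 2.13 for Bradi2g19010 and 40.1 for Bradi2g56347. The values of T2 drought are given beside those of the T2 control as levels only, because the 5 genes were chosen for being high in that control.

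**Figure D2:**
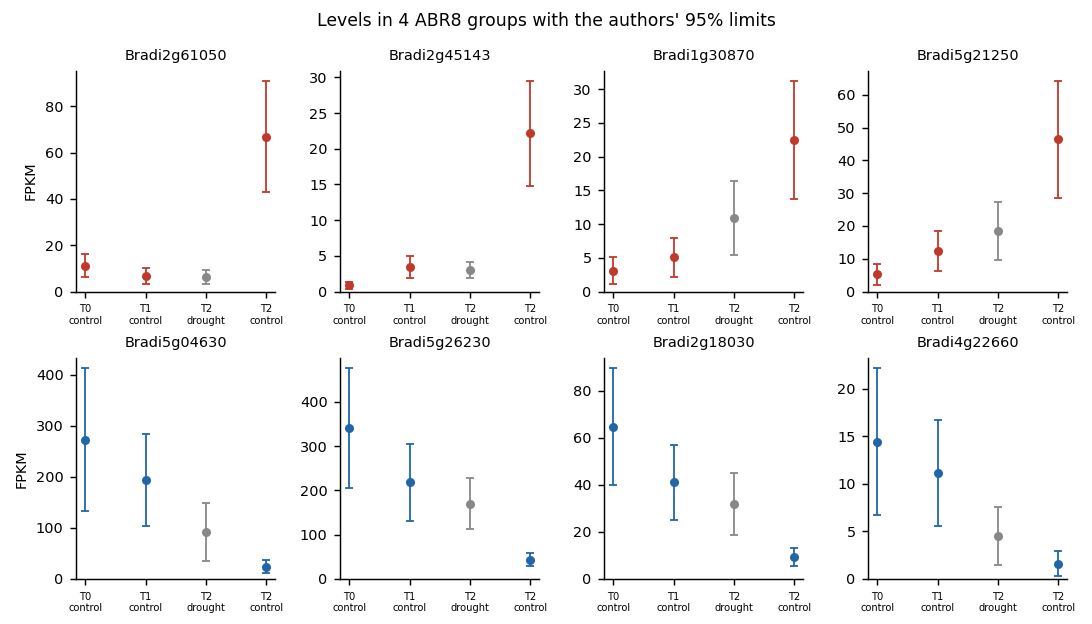
FPKM with the authors' 95% limits (bars) of 4 genes called higher (top, red) and 4 called lower (bottom, blue) in 4 ABR8 groups, controls in colour and T2 drought in grey. The T2 control is the highest group for each gene in the top row and the lowest for each in the bottom row, and its limits do not overlap those of the T1 control. Both follow largely from the choice of these genes by their value in that control.

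Regulators of stress and jasmonate responses were among the rises. The study names 8 JAZ, WRKY and AP2/ERF genes, and 3 of them were called higher and 0 lower, where 0.0946% of all tested loci were called higher. At the unadjusted p and 2-fold 7 of the 8 were higher, where 0.662% of all tested loci were. Their median log2 ratio was 1.964, against 0.03 for all members. The study picked 4 of them from ABR8 T2 drought against the ABR8 T2 control. In its text it named the 3 ERF genes as lower with drought in ABR8 at T2, which is the same contrast, and Bradi2g44270 as higher with drought at T1. The 7 higher genes thus all came from a contrast that uses the ABR8 T2 control, so their direction is not independent evidence. The JAZ locus Bradi1g72590,Bradi1g72595 (2 gene models merged in the table), which codes for a repressor of jasmonate-driven transcription, had 38.0 (23.1 and 52.9) in the T2 control, against 10.1 (5.51 and 14.7) in the T1 control. Its log2 ratio was 1.91 ± 0.44 (SE), with an adjusted p of 0.0115 by the z-test. The second JAZ gene, Bradi3g23180, had 2.04 in the T2 control, against 0.473 in the T1 control, and did not pass the adjusted threshold.

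BdWRKY68 (Bradi1g30870), a transcription factor gene of the WRKY family, had 22.4 (13.7 and 31.2) in the T2 control, against 5.05 (2.14 and 7.97) in the T1 control. The log2 ratio was 2.15 ± 0.51 (SE), with an adjusted p of 0.0168 by the z-test. The ERF gene Bradi5g21250 had 46.4 (28.6 and 64.3) in the T2 control, against 12.4 (6.15 and 18.6) in the T1 control, a log2 ratio of 1.91 ± 0.47 (SE). The ERF genes Bradi5g25570, with 19.97 against 4.94, and Bradi3g18070, with 5.10 against 0.175, had log2 ratios of 2.02 and 4.87 that did not pass the adjusted threshold. The AP2 gene Bradi2g52370, with 46.4 in the T2 control, against 18.8 in the T1 control, did not pass it either. Bradi2g44270, whose Arabidopsis counterpart is WRKY46, was the exception with 12.98 in the T2 control, against 14.8 in the T1 control. The 3 genes of 12-oxophytodienoate reductases, an enzyme family that includes a step of jasmonate synthesis, gave 0 calls, with log2 ratios between -0.49 and 0.37.

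CBF factors switch on cold and dehydration genes, and CBF7 (Bradi4g35650) had 8.55 in the T2 control, against 2.62 in the T1 control. Its log2 ratio of 1.70 had an unadjusted p of 0.00929 and an adjusted p of 0.813 by the z-test, so it was not called. CBF4 (Bradi4g35600) had 1.145 in the T2 control, against 0.286 in the T1 control, and was not called. MPK3 (Bradi1g65810), a stress-activated MAP kinase gene, had 25.5 in the T2 control, against 16.9 in the T1 control, and 0 of the 9 MAP kinase genes were called.

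The other steep rises lie in genes that the tables do not describe. Bradi3g46030 had 32.1 in the T2 control, against 4.60 in the T1 control, and Bradi3g60360 had 18.8 against 2.69. Bradi4g30100, Bradi1g20460, Bradi1g44170, Bradi1g44680 and Bradi1g33050 stood between 23.6 and 70.1 in the T2 control, against 4.63 to 12.6 in the T1 control. By level the top called rises were Bradi1g19010, with 158.3 (105.04 and 211.5) in the T2 control, against 55.0 (36.6 and 73.4) in the T1 control, and Bradi1g37600, with 123.8 (80.2 and 167.5) against 44.4 (30.0 and 58.8). Bradi3g06070 followed with 114.4 against 33.5, and Bradi2g55920 with 86.8 against 21.3. Bradi2g20971 is listed at 0 in 14 of the 15 groups and at 4.06 in the ABR8 T2 control, so no fold is given.

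The falls were larger in number and included all called genes of the cell wall groups. Bradi5g04630 (chromosome 5, 5852396 to 5853456), which the tables do not describe, had 24.1 (10.8 and 37.3) in the T2 control, against 194.1 (104.01 and 284.2) in the T1 control. The log2 ratio was -3.01 ± 0.53 (SE), with an adjusted p of 4.44e-05 by the z-test. Bradi3g37670 had 14.98 (8.18 and 21.8) in the T2 control, against 109.9 (65.3 and 154.6) in the T1 control, and Bradi1g38120 had 18.8 (8.42 and 29.2) against 132.2 (74.4 and 190.0). In all 3 genes the lower limit at T1 was above the upper limit at T2, as in all called falls. Bradi1g72110 and Bradi1g24410 had 1.43 and 7.26 in the T2 control, against 22.04 and 59.5 in the T1 control. The lowest log2 ratio, -8.37 ± 2.16 (SE) for Bradi3g55270, rests on an FPKM of 0.0425 in the T2 control, against 14.0 in the T1 control, and 12 of the 47 falls had an FPKM under 1 in the T2 control.

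Bradi5g26230 (chromosome 5, 27460604 to 27462213), annotated by the study as an oxidoreductase, had 43.0 (28.7 and 57.4) in the T2 control, against 218.3 (131.7 and 305.0) in the T1 control. Its log2 ratio was -2.34 ± 0.38 (SE), with an adjusted p of 3.6e-06 by the z-test. The other highly expressed falls were Bradi3g01470, with 90.0 (59.8 and 120.3) in the T2 control, against 262.3 (156.2 and 368.5) in the T1 control, and the merged locus Bradi1g78235,Bradi1g78240, with 41.5 (27.0 and 56.0) against 118.8 (72.0 and 165.6). XLOC_024713, a locus of 133 bases without a gene identifier, is listed at 0 in the T2 control and at 12.2 in the T1 control. It stood at 22.9 in ABR8 T2 drought, is listed at 0 in the ABR4 T0 control and in ABR4 T2 drought too, and had 204.4 in the KOZ1 T1 control. Bradi3g02990, of 126 bases, had 8.97 in the T2 control, against 24.4 in the T1 control, and is listed at 0 in 3 of the other groups. A listed 0 in such short loci can be a failed estimate, so neither is read further.

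The wall genes came from the study's tables of genes with a role in the cell wall or in oxidation. Those tables were chosen partly for a difference between ABR8 T2 drought and T2 control or for high levels in ABR8. The paper describes the peroxidases of its ABR8 T2 list as generally high in ABR8 save for the T2 control. The direction of the wall groups is therefore not independent evidence. Peroxidases, which build and loosen the wall by oxidising its phenolics, had 12 of 15 genes lower and a median log2 ratio of -1.38, with 1 called lower and 7 past 2-fold at the unadjusted p. Over all members 7980 of 17446 were lower, and 0.178% of tested loci were called lower and 1.31% passed 2-fold downward at the unadjusted p. The called peroxidase gene, Bradi4g22660, had 1.61 (0.343 and 2.88) in the T2 control, against 11.14 (5.58 and 16.7) in the T1 control. Bradi2g38660 had 19.5 against 53.1 and a log2 ratio of -1.45, and its adjusted p of 0.0544 by the z-test just missed the threshold. The cytochrome-c peroxidase gene Bradi1g65820 had 53.2 against 90.4, and 2 neighbours by number, Bradi1g17840 and Bradi1g17850, ran the other way with 24.5 and 17.2 in the T2 control, against 12.3 and 9.44 in the T1 control.

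Laccases and plastocyanin-like copper proteins had 6 of 7 genes lower and a median log2 ratio of -2.01, with 1 called lower (0.178% of all tested loci) and 5 past 2-fold at the unadjusted p (1.31%). The laccase gene Bradi2g23350 had 0.848 (0.0298 and 1.67) in the T2 control, against 7.24 (3.75 and 10.7) in the T1 control, a log2 ratio of -3.09 ± 0.79 (SE). Of the copper proteins, Bradi1g45710 had 5.41 in the T2 control, against 21.8 in the T1 control, and Bradi1g01610 had 3.67 against 18.1. Neither passed the adjusted threshold.

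Pectin is the gel of the wall between cells, and all 4 members among the pectin enzyme genes were lower, 1 of them by a call (0.178% of all tested loci). The polygalacturonase gene Bradi2g18030, whose product cuts pectin chains, had 9.15 (5.31 and 12.996) in the T2 control, against 41.0 (25.3 and 56.8) in the T1 control. Its log2 ratio was -2.16 ± 0.42 (SE), with an adjusted p of 0.000457 by the z-test. The pectin methylesterase gene Bradi2g11860 had 5.79 in the T2 control, against 14.6 in the T1 control, and the pectin acetylesterase gene Bradi1g20270 had 12.2 against 25.6. These 2 were not called.

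Glycoside hydrolases other than the pectin and xyloglucan enzymes had 12 of 14 genes lower, against 7980 of 17446 members, with a median log2 ratio of -1.07 and 1 call (0.178% of all tested loci). That was Bradi5g23470, a beta-D-xylosidase gene of the kind that trims xylan, with 5.41 (3.12 and 7.69) in the T2 control, against 16.9 (10.2 and 23.5) in the T1 control. A second one, Bradi4g20197, had 32.9 against 74.7 without passing the adjusted threshold. The 4 xyloglucan endotransglucosylase/hydrolase genes had 0 calls and a median log2 ratio of -0.88, led by Bradi3g18590 with 100.3 in the T2 control, against 191.1 in the T1 control. The expansin genes, which loosen walls without cutting them, did not share the pattern. Bradi2g22290 had 171.8 in the T2 control, against 163.6 in the T1 control, and Bradi2g53580 had 20.7 against 26.0. The 9 glycosyl transferase genes, which build wall polymers, had a median log2 ratio of -0.05 and 0 calls.

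Other called falls with a description were Bradi1g75730, a cytochrome P450 described as an alkane monooxygenase or omega-hydroxylase, with 8.06 (4.49 and 11.6) in the T2 control, against 34.3 in the T1 control, the aldehyde reductase gene Bradi2g23460, with 8.91 against 32.5, and the alcohol or aldehyde dehydrogenase gene Bradi3g50200, with 6.13 against 20.5. The auxin-responsive SAUR gene Bradi1g51490 had 0.979 against 10.3 and an adjusted p of 0.0818 by the z-test, and another SAUR gene, Bradi3g49020, had 9.54 against 2.104, so the 3 auxin genes did not run one way. The lignin genes CAD5 (Bradi3g06480) and pmt (Bradi2g36910) had 15.1 and 38.0 in the T2 control, against 16.0 and 40.4 in the T1 control. The 4 members among the SWN genes, which switch on secondary wall formation, had log2 ratios between -0.59 and 0.62. The study's list of ABR8 T2 genes was chosen for a difference between ABR8 T2 drought and T2 control. It holds stress regulators and oxidoreductases besides wall genes. The study's list of wall genes higher in ABR8 was chosen partly for high levels in ABR8. Both choices used this T2 control. Over all tested loci 0.178% were called lower and 0.0946% higher. In the list of ABR8 T2 genes 6 of 46 members were called lower and 3 higher, and in the list of wall genes higher in ABR8 2 of 50 were lower and 0 higher. In the study's list of ABR4 T2 genes, 3 of 46 members were called lower and 0 higher, with a median log2 ratio of -0.29. These 3, Bradi2g23350, Bradi4g22660 and Bradi3g50200, are also among the 6 falls of the ABR8 T2 list.

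**Figure D3:**
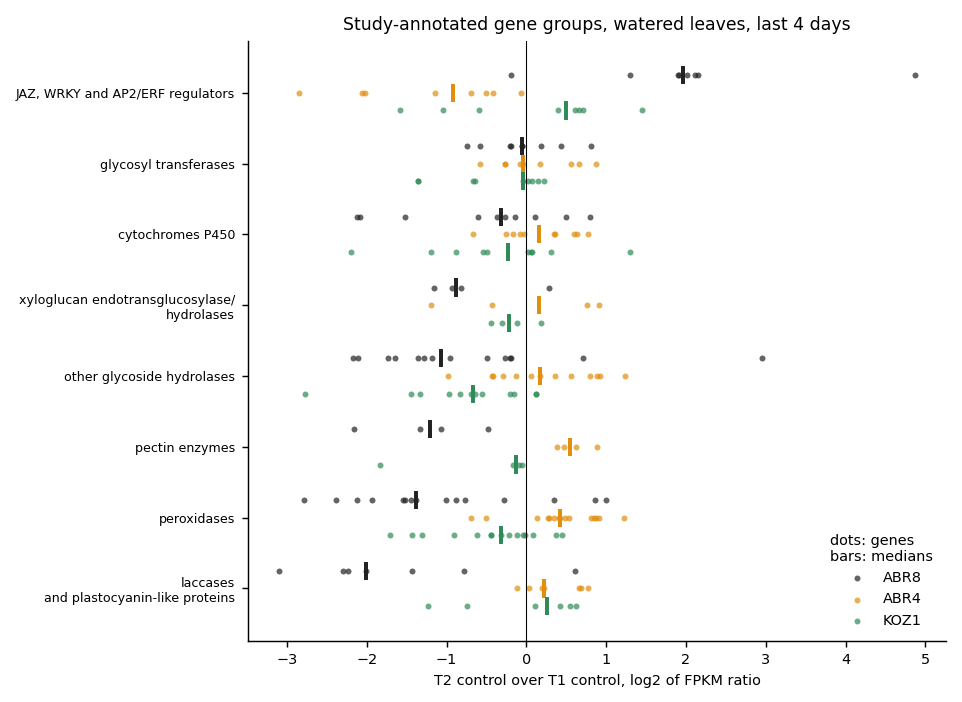
Log2 ratio of T2 control over T1 control for the members of 8 study-annotated gene groups (dots) with their medians (bars) in ABR8, ABR4 and KOZ1. In ABR8 7 of the 8 regulators sit right of 0, with a median of 1.964, and 6 of 7 laccases and 12 of 15 peroxidases left of it, with medians of -2.01 and -1.38, while the ABR4 medians of these groups have the opposite sign. The study chose part of these genes from a contrast that uses the ABR8 T2 control.

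Several called falls were neighbours on the chromosome. Bradi3g20980 (chromosome 3, 20011557 to 20012560), Bradi3g21000 (20018872 to 20020334) and Bradi3g21030 (20041295 to 20042737) had 4.05, 0.767 and 6.08 in the T2 control, against 44.3, 12.1 and 44.7 in the T1 control. Bradi3g55270 and Bradi3g55277 lie 7401 bases apart. If such neighbours are near-identical copies, reads may have been shared between them, which was not tested.

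Few of these loci were called in the controls of the other 2 lines over the same days. ABR4 gave 5 higher loci (0.0194%) and 5 lower (0.0194%), and KOZ1 10 higher (0.0385%) and 14 lower (0.054%), between T2 and T1 controls. Scaling to the same sum of FPKM moved the lower calls to 10 in ABR4 and 38 in KOZ1. Of the 25 loci called higher in ABR8, 1 was also called higher in ABR4 and 1 in KOZ1, and of the 47 called lower, 1 was called lower in ABR4 and 2 in KOZ1. Opposite calls were 0 in ABR4 and 2 in KOZ1. These were Bradi2g56347, higher in ABR8 but lower in KOZ1 with a log2 ratio of -2.71, and Bradi3g02990, lower in ABR8 but in KOZ1 at 7.99 in the T2 control and listed at 0 in the T1 control. By sign alone, the loci called in ABR8 ran against ABR4. Of the 25, 2 were higher and 22 lower in ABR4, and of the 47, 11 were lower and 36 higher. Over all members, 57.02% of those higher in ABR8 were higher in ABR4, and 56.8% of those lower were lower. With KOZ1, 14 of the 25 were higher and 31 of the 47 lower, beside 66.0% and 66.5% over all members.

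Whether a change in ABR8 differed from that in another line was tested on the log2 ratios of both lines. Against ABR4 it passed for 33 of 22227 loci, of which the ABR8 change was the higher one at 19 (0.0855%) and the lower one at 14 (0.063%). These included 15 of the 24 testable loci called higher in ABR8 and 10 of the 46 testable loci called lower. Against KOZ1 it passed for 13 of 22271 loci, 12 with the higher (0.0539%) and 1 with the lower change in ABR8 (0.00449%), among them 6 of the 24 and 1 of the 42. For most called loci the change in ABR8 was therefore not shown to differ from that in KOZ1. At an unadjusted p of at most 0.05 the numbers against KOZ1 were 19 of the 24 and 22 of the 42, beside 268 of all 22271 loci. The tests of difference use again the ABR8 change by which the called loci were chosen. High counts among the called loci follow in part from that choice.

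Loci past both tests were Bradi2g61050, Bradi2g60970, Bradi2g45143, Bradi2g19010, Bradi2g56347, Bradi1g20460 and Bradi5g26230. Bradi5g26230 had 174.0 in the ABR4 T2 control, against 119.8 in the ABR4 T1 control, and 124.9 in the KOZ1 T2 control, against 100.4 in the KOZ1 T1 control. Its log2 change in ABR8 was lower than in ABR4 by a difference of -2.88 ± 0.53 (SE) and lower than in KOZ1 by -2.66 ± 0.54 (SE). Bradi2g61050 had 19.5 in the ABR4 T2 control, against 49.2 in the ABR4 T1 control, and 14.5 against 15.04 in KOZ1. BdWRKY68 (Bradi1g30870) had 11.3 in the ABR4 T2 control, against 24.9 in the ABR4 T1 control, and its change differed from that in ABR4 by 3.29 ± 0.69 (SE), with an adjusted p of 0.0056 by the z-test of the difference.

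A few genes ran the same way in all 3 lines, which by sign held for 2 of the 25 rises and 10 of the 47 falls. Of these, 1 rise and 2 falls were at least 2-fold in both other lines. Bradi1g37600 was called higher in each, with 71.5 in the ABR4 T2 control, against 19.8 in the ABR4 T1 control, and 130.5 against 27.6 in KOZ1. Bradi1g19010 had 85.7 against 43.5 in ABR4 and 270.7 against 123.8 in KOZ1, without a call there. Among the falls 0 loci were called in all 3 lines. Bradi5g11240 came nearest, with 7.23 in the ABR8 T2 control, against 21.1 in the ABR8 T1 control, 5.69 against 16.4 in ABR4 (adjusted p of 0.0808 by the z-test) and 9.02 against 28.4 in KOZ1 (adjusted p of 0.00568). Bradi2g31800 had 16.3 against 65.8 in ABR8, 10.4 against 27.5 in ABR4, and 6.90 against 27.9 in KOZ1, and was called in ABR8 and KOZ1. Bradi1g41115 had 2.30 against 15.5 in ABR8 and 16.7 against 54.8 in ABR4, and was called in both.

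**Figure D4:**
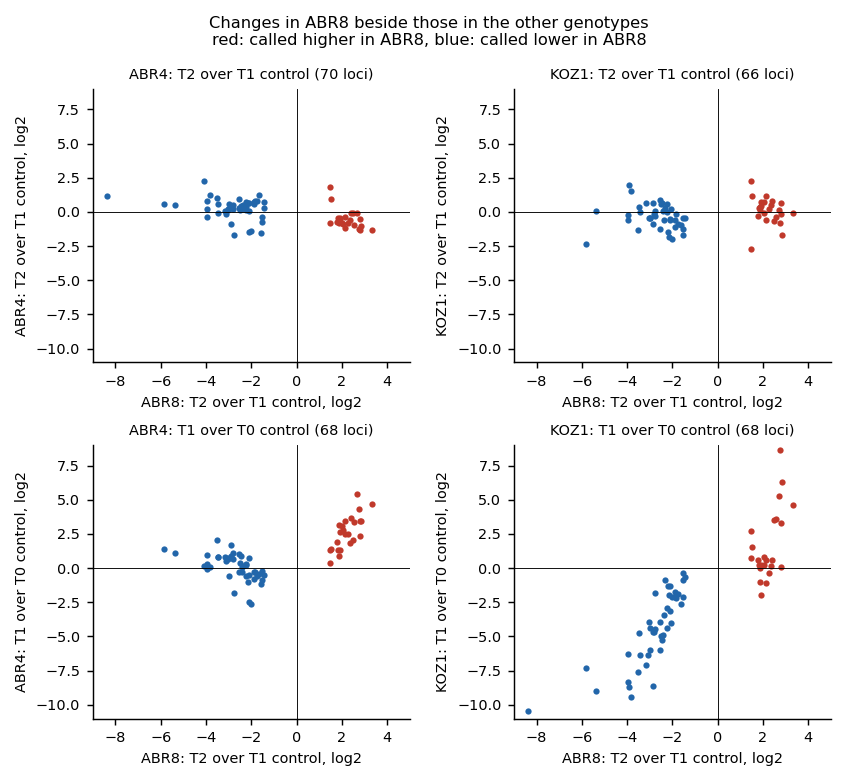
Log2 ratios of the called ABR8 loci (T2 over T1 control, horizontal) against the log2 ratios of the same loci in ABR4 and KOZ1 (vertical), for T2 over T1 control in the top row and T1 over T0 control in the bottom row. In the top row 22 red points lie below 0 and 36 blue points above 0 in ABR4, and both colours lie on both sides of 0 in KOZ1, while in the bottom row the red points lie above 0 in ABR4 and the blue points below 0 in KOZ1; 66 to 70 loci above 0 in all 4 groups are drawn in each panel.

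Most of the rises had moved in ABR4 over the first 4 days. This comparison of T1 with T0 controls was added after the values had been seen, and it shares no sample with the ABR8 groups. In ABR4, 24 of the 25 loci called higher in ABR8 were higher in the T1 than in the T0 control, and the other one, Bradi2g20971, is listed at 0 in both. Of them 22 were at least 2-fold higher, against 8.45% of all tested loci, and 17 were called higher, against 0.161%. Their median log2 ratio there was 2.56. In KOZ1, 20 of the 25 were higher in the T1 control and 8 were called, against 0.36%. BdWRKY68 (Bradi1g30870) had 24.9 in the ABR4 T1 control, against 4.45 in the ABR4 T0 control, and 5.62 against 3.75 in KOZ1. Bradi2g61050 had 49.2 in the ABR4 T1 control, against 1.91 in the ABR4 T0 control, and 15.04 against 0.619 in KOZ1.

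Most of the falls had moved in KOZ1 over the first 4 days. Of the 47 loci called lower in ABR8, 46 were lower in the KOZ1 T1 control than in the KOZ1 T0 control, 42 were at least 2-fold lower, against 15.8% of all tested loci, and 34 were called lower, against 0.854%. Their median log2 ratio there was -4.35. In ABR4, 19 of the 47 were lower in the T1 control and 28 higher. Of them 3 were called lower, against 0.123%, and 2 higher, against 0.161%, namely XLOC_024713 and Bradi3g02990, which are both listed at 0 in the ABR4 T0 control. Bradi5g04630 had 2.55 in the KOZ1 T1 control, against 164.5 in the KOZ1 T0 control, and 25.3 against 15.6 in ABR4. In KOZ1 T1 drought it had 85.2. Over the 47 loci the median FPKM was 16.2 in KOZ1 T1 drought, against 2.06 in the KOZ1 T1 control. The XLOC_024713 locus is the exception that was higher in the KOZ1 T1 control. The 3 KOZ1 T0 samples are among those whose record and title disagree on watering. Within KOZ1 the run names end in L3 for the T0 control and in L3, L4 and L4 for the T1 control. The part of watering or run in these values was not tested.

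The levels put these changes side by side. Over the 47 falls the median FPKM of the ABR8 controls was 35.7 at T0, 22.04 at T1 and 4.25 at T2, that of the KOZ1 controls was 33.96, 2.06 and 1.89, and that of the ABR4 controls was 2.97, 4.95 and 5.69. Over the 25 rises it was 3.46, 8.95 and 44.7 in ABR8, 3.38, 27.2 and 16.3 in ABR4, and 3.84, 8.60 and 7.77 in KOZ1. In ABR8, 45 of the 47 falls stood in the order T0, T1, T2 from high to low and 20 of the 25 rises in that order from low to high. The T0 and T1 steps share the T1 control with the choice of these loci, so this order is a description. In ABR8 T2 drought the median FPKM was 11.2 over the falls and 12.998 over the rises. In KOZ1 the falls had a median of 16.2 in T1 drought and 4.00 in T2 drought, and the rises 4.71 and 5.92. The part of watering in these values was not tested. The ABR8 T2 control was the lowest of the ABR8 T0, T1, T2 drought and T2 control groups for 47 of the 47 falls, and the highest for 24 of the 25 rises. The loci were chosen by their value in that control, so its place among the groups follows largely from the choice and is a description too.

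**Figure D5:**
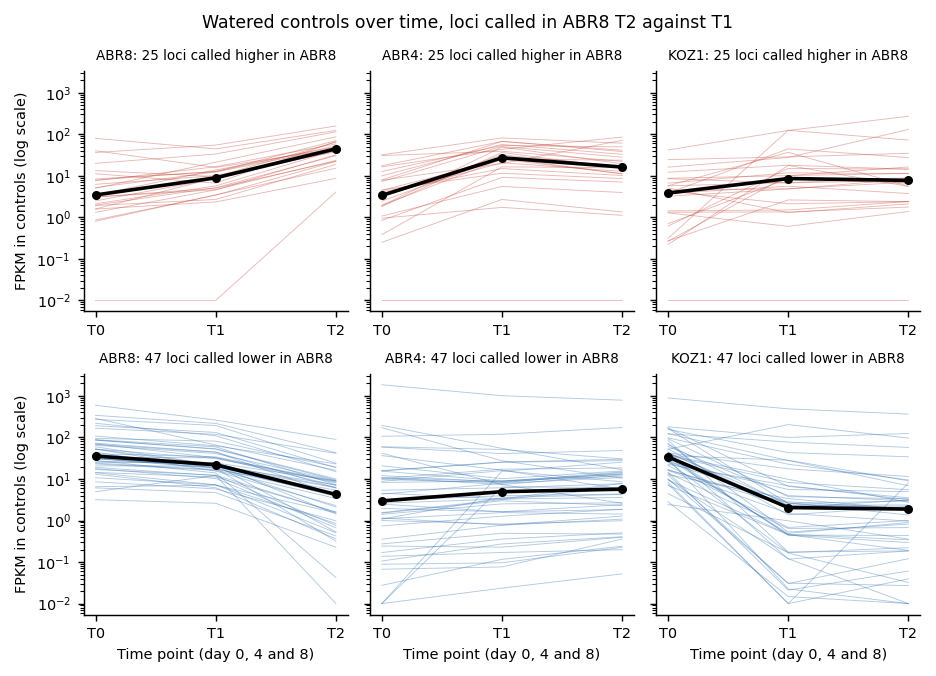
FPKM of the watered controls at T0, T1 and T2 (log scale, values under 0.01 drawn at 0.01) in ABR8, ABR4 and KOZ1, with 1 thin line per locus and the median as a thick line, for the 25 loci called higher (top) and the 47 called lower (bottom) in ABR8. The median of the falls is at 4.25 only at T2 in ABR8 but at 2.06 by T1 in KOZ1, and that of the rises peaks at 27.2 at T1 in ABR4.

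Across all expressed loci the ratios of the lines were loosely related. Over the loci at an FPKM of at least 1 in the 4 groups of each pair, the log2 ratios of ABR8 (T2 over T1 control) had a Pearson r of 0.10 and a Spearman rho of 0.19 with those of ABR4 over the same days (14887 loci), and an r of 0.33 and a rho of 0.42 with those of KOZ1 (14872 loci). With the first 4 days, from T0 to T1, the r was 0.32 and the rho 0.19 in ABR4 (14873 loci), and the r was 0.41 and the rho 0.19 in KOZ1 (14863 loci). These correlations run across genes of pooled groups, which are not independent replicates, and the contrasts share no libraries.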

How the data were processed

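Leaf RNA of 45 plants was sequenced, 3 libraries in each of 15 groups. Reads were quality trimmed (Trim Galore 0.4.1), mapped to assembly v3.0 (TopHat2 2.1.1 with Bowtie2 2.2.9, annotation v3.1) and compared with Cuffdiff (Cufflinks 2.2.1). The deposited values are FPKM per locus, which the authors pooled per group, each with 95% limits. Single libraries and their depth were not used here. The standard error was taken as the distance to the upper limit over 1.96, and since it carries the authors' model of spread, the p-values rest on that model. Loci above 0 in either group were tested by a z-test on ln(FPKM), or on the FPKM difference where 1 group was at 0. Benjamini-Hochberg adjustment ran over all of them. The code was first checked on simulated data. The simulated noise had the size of the same standard errors, so that check cannot show whether they fit the data. The steps ran in Python 3.11.15 (scipy 1.17.1, statsmodels 0.14.6, numpy 2.4.6, pandas 2.3.3; figures by matplotlib 3.10.9).

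RefSeq symbols were matched by reciprocal overlap of at least 50% on v3.0, for 24235 loci, and gave the symbol that the study pairs with the gene for 119 of 134 genes. The 39 lists planned from words in gene descriptions could not be applied, because the gene table used holds none, and the study's categories took their place. Named by rule were the 12 steepest rises and falls among called loci that reached an FPKM of 1 in each control, the 5 called loci with the highest level each way, called members of each list (or the 2 with the smallest p), called genes of the study's lists, loci listed at 0, and called loci that differed from both other lines or were called in all 3. Every other gene named was chosen after its values were seen. The members and lists were chosen with earlier results of these data known. Alternatives were other thresholds, tests, pseudocounts and scalings.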

Additional observations from a re-analysis of the deposited data

Results flagged for a closer look

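In 7 called loci the change in ABR8 (T2 over T1 control) differed from that in ABR4 and from that in KOZ1 by the z-test of the difference, with adjustment over all loci tested. These were Bradi2g61050, with a log2 change of 3.33, Bradi2g19010 with 2.85, Bradi2g60970 with 2.76, Bradi2g45143 with 2.69, Bradi1g20460 with 2.48 and Bradi2g56347 with 1.49, all higher in the T2 control, and Bradi5g26230 with -2.34. In KOZ1 Bradi2g56347 moved the other way, with 5.62 FPKM in the T2 control, against 36.8 in the T1 control, and Bradi1g20460 had 27.5 against 44.5. Of the 7, Bradi2g19010, Bradi2g45143, Bradi2g60970 and Bradi2g61050 were also called in ABR8 by the test on FPKM differences.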

How the results depend on the processing

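No paired analysis was possible because the table holds 1 pooled value per group, and for the same reason no library could be left out. The counts in ABR8, 25 higher and 47 lower, became 175 and 345 at the unadjusted p and 93 and 169 for 95% limits that do not overlap. They became 4 and 2 with the test on FPKM differences, and 16 and 37 at 4-fold or more. Adjustment over members, limits read as 2 standard errors, an FPKM of 1 in both groups, either pseudocount and either scaling gave 24 to 31 higher and 35 to 61 lower. Leaving out loci listed at 0, added after seeing the data, gave 24 and 46. In ABR4 the counts were 75 and 97, and in KOZ1 81 and 187, at the unadjusted p, and scaling to the same sum gave 10 lower in ABR4 and 38 in KOZ1; the cause was not tested. Over the 70 ABR8 calls above 0 in all 4 groups the share with the same sign in ABR4 was 17.1%, and it was 32.1% among loci at the unadjusted p. Changes that differed between lines numbered 458 for ABR4 and 268 for KOZ1 at the unadjusted p. Of the 71 genes named by the rule and above 0 in both groups, 0 changed sign under any of these settings. Most settings leave the log2 ratio as it is, a pseudocount cannot turn its sign, and scaling moved it little. This outcome was therefore nearly fixed in advance and is no added support. The settings were not read for genes named outside the rule. Of the 39 called ones among the 71 genes, 35 lost the call with the test on differences, 10 at 4-fold, 1 with an FPKM of 1 in both groups and 2 with scaling to the same sum. Scaling moved the ABR8 ratios by 0.00437 (median) and 0.028 (sum) on the log2 scale. The limits cover the authors' model of spread alone.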
